A study of Sus scrofa with 35 samples.

Results

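The HSP70 and HSP110 chaperones were followed in the blood of pigs under heat stress. They were taken as the probes that carry the gene name HSPA1L, HSPA2, HSPA4, HSPA5, HSPA6, HSPA8, HSPA9, HSPA13, HSPA14, HSPH1 or HSP70.2 in the scanner files. That rule found 10 of the 11 names, among 45222 distinct entries in the gene-name column (which include probe identifiers), and 19 of the 60305 probes of the array. No probe carries the name HSPA6. Of the 19 probes, 16 had a row in the log2 table of the authors, which holds 39072 probes. Values were read from that table unless stated otherwise. A log2 step of 1 is a doubling of intensity, and levels of different probes are not comparable.

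Whole blood had been collected from 35 castrated male growing pigs, with 1 array a pig. The breeds were Creole (CR), Large White (LW) and their F1 cross. Thermoneutral (TN) pigs had been kept at 24 °C and slaughtered before the temperature was raised, and heat stress (HS) pigs after up to 5 d in the heat, which the sample labels give as 30 °C and the protocol as 32 °C. There were 6 pigs in each group of breed and climate, except 5 in CR TN. Pigs shared pens with others of their breed and had littermates in other pens. The labels identify neither, so the tests treat pigs as independent. By the protocol, TN and HS pigs came from different pens and days of slaughter, so these cannot be told apart from climate. Where pigs of the same pen or day are alike, p-values for climate come out too small. Adjusted p-values were taken over all probes of the table, and intervals are 95% intervals.

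HSP70 proteins bind exposed hydrophobic stretches of unfolded proteins and release them through cycles of ATP hydrolysis. HSP40 proteins with a J domain deliver the client and speed up the hydrolysis, and exchange factors, which include the HSP110 proteins HSPA4 and HSPH1, bring in new ATP. Some members are induced by heat shock factor 1, others are made at all times, and HSPA5 (BiP), which resides in the endoplasmic reticulum, is induced when unfolded proteins accumulate there.

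Probes of the same member gave different results, so 5 of the 60-base probes are printed 5′ to 3′ as the scanner files give them. They are the HSPA5 probe that differed between climates, 1 probe each of HSPA8, HSP70.2 and HSPA2 with a reading frame free of stops, and the sole probe of HSPA9. Capitals mark every stop triplet (TAA, TAG or TGA) on the printed strand, in any of the 3 reading frames.
HSPA5 A_72_P416982: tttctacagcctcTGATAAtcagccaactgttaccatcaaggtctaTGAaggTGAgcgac
HSPA8 O9117: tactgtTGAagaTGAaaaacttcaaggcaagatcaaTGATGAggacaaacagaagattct
HSP70.2 A_72_P088236: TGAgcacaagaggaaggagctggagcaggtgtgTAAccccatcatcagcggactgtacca
HSPA2 O8053: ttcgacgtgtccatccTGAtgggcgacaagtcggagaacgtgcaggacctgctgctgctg
HSPA9 O9126: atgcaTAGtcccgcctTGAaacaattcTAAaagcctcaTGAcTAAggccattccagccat
The first 4 had 2 of 3 forward frames without a stop. The HSPA9 probe had a stop in all 3 of its forward frames, while 2 of 3 frames of its reverse complement had none. Which strand of HSPA9 it detects was not tested. HSPA13 A_72_P435494 and HSPH1 A_72_P591989 also had a stop in all 3 forward frames, and in all 3 frames of their reverse complements. The other pair of HSPA5 probes, A_72_P205757 and O878, shared a run of 49 bases and both hold AATAAA, the hexamer found near the end of most transcripts. Probes of different members shared no run above 9 bases. The files give no genome build and place no probe, so no coordinates are given.

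Over the whole table, 34.8% of probes passed an adjusted p of 0.05 for HS minus TN over breeds in limma (20.1% higher and 14.7% lower). Arrays of F1 TN pigs were dim, with a 75th percentile of the processed signal of 112 to 186 units against 172 to 266 in F1 HS pigs, and 5 of the 6 F1 HS arrays were brighter than every F1 TN array. In the other groups it ranged from 145 to 329 units. Of the 21 probes for erythroid marker genes, 9 were lower and 1 higher in HS, and of the T cell and B cell probes 9 of 21 and 5 of 8 were higher and 0 lower. Of the neutrophil probes 0 of 10 were higher and 1 lower, of the monocyte probes 2 of 17 higher and 1 lower, and of the natural killer and platelet probes, 7 each, none passed. No marker gene was below background on all arrays. The part of white cells in the results on members was not tested. Blood is a mixture, so fewer cells of a type and less RNA per cell cannot be told apart. Without F1 pigs, 0 of 39072 probes passed in limma, with 6845 at an unadjusted p under 0.05.

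Among the probes found by name, those of HSPA5 alone passed the threshold. Over breeds, 1 of the 16 probes passed, against 34.8% of all probes (46% at an unadjusted p under 0.05, and 2 of the 16), and it was HSPA5 A_72_P416982, 0.31 higher in HS on the log2 scale (SE 0.0758, 95% interval 0.15 to 0.46, adjusted p = 0.00349). The median difference of the 16 probes was 0.07, against 0.06 over all 39072 probes. Within F1 pigs, 3 of 16 probes were called, against 38.7% of all probes (20.8% higher and 17.9% lower), and all 3 were those of HSPA5 and higher. At an unadjusted p under 0.05 the same count was 3 of 16, against 48.9%. Within CR and LW pigs limma called 0 of the 16 and 0% of the table, with 1 of the 16 under an unadjusted p of 0.05 in each breed and 8.87% and 8.71% of all probes. The interaction of breed and climate was called for 0 of the 16 and 0% of all probes, with 2 of the 16 at an unadjusted p under 0.05 and 14.9% of all probes.

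**Figure D1:**
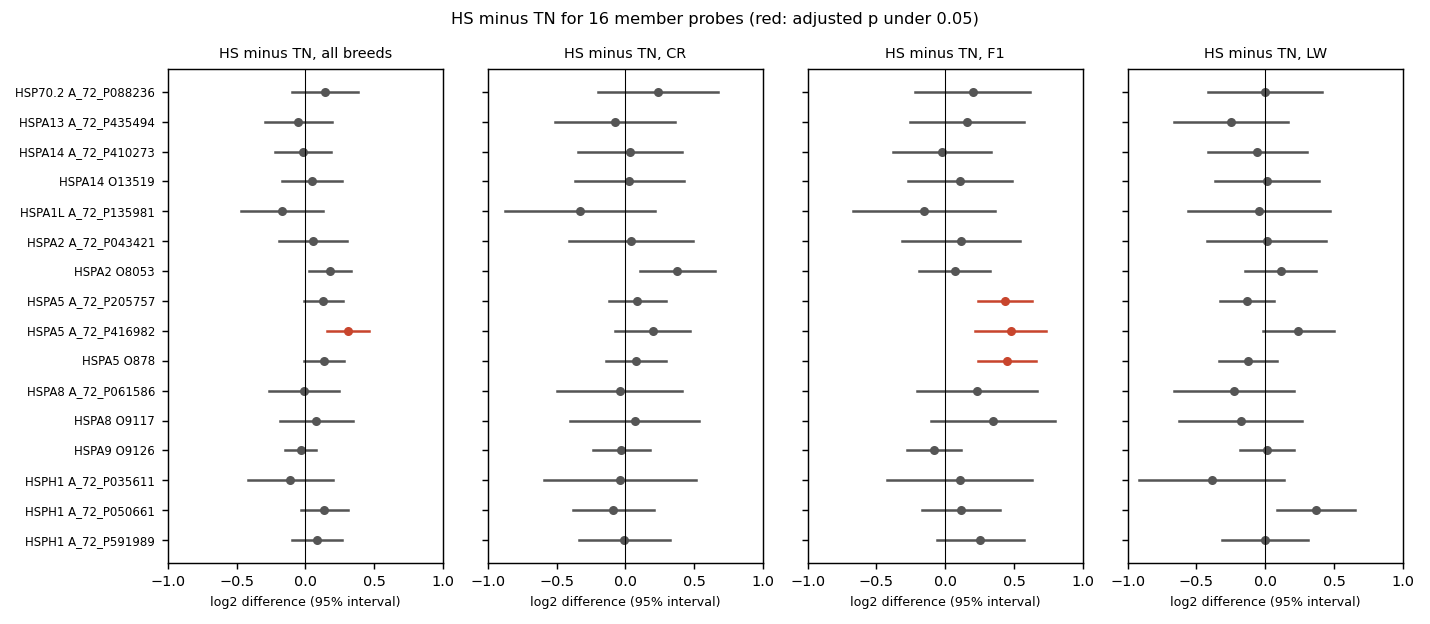
HS minus TN in log2 units for the 16 probes of the authors' table (rows) over all breeds and within CR, F1 and LW pigs (panels), with points for estimates, lines for 95% intervals and red where the adjusted p is under 0.05. Red is limited to HSPA5, with 1 probe over breeds and 3 in F1 pigs, and no probe is red in CR or LW pigs.

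HSPA5 holds nascent secretory and membrane proteins in the endoplasmic reticulum and keeps the stress sensors of that compartment silent. On A_72_P205757, its main probe, the one with the highest mean, F1 TN pigs ranged from 10.57 to 11.02 with a median of 10.72 and F1 HS pigs from 10.80 to 11.38 with a median of 11.26. Of the 6 F1 HS pigs, 5 lay above the highest F1 TN pig and none below the lowest. CR TN pigs were at 10.87, 10.90, 10.98, 11.06 and 11.07, and CR HS pigs ranged from 10.86 to 11.27 with a median of 11.07. LW TN pigs ranged from 11.01 to 11.33 with a median of 11.06 and LW HS pigs from 10.84 to 11.12 with a median of 11.02. F1 pigs thus held both the lowest and the highest group mean, while in LW pigs 3 of 6 HS values lay below the lowest TN value. The difference was 0.43 in F1 pigs (SE 0.0973, adjusted p = 0.00126, limma), 0.086 in CR pigs (interval -0.12 to 0.29) and -0.13 in LW pigs (interval -0.33 to 0.066).

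On O878, which overlaps it, the F1 TN pigs ranged from 9.77 to 10.22 with a median of 9.84 and the F1 HS pigs from 10.03 to 10.64 with a median of 10.40. In LW pigs the order was the other way on both overlapping probes: LW TN pigs ranged on O878 from 10.12 to 10.57 with a median of 10.21 and LW HS pigs from 9.92 to 10.26 with a median of 10.18, and 0 of the 6 LW HS pigs exceeded the average LW TN level. The climate effect of F1 pigs minus that of LW pigs was 0.57 on A_72_P205757 (interval 0.29 to 0.85) and 0.57 on O878 (interval 0.28 to 0.87), both with an adjusted p of 0.122 in limma, so a difference between the breeds did not pass the threshold. No probe of the table passed it for that contrast (0%, with 22.7% at an unadjusted p under 0.05 and 2 of the 16). CR TN pigs were at 10.12, 10.13, 10.14, 10.18 and 10.20 on O878 and CR HS pigs ranged from 9.999 to 10.50 with a median of 10.25.

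On A_72_P416982, F1 TN pigs ranged from 8.13 to 8.47 with a median of 8.20 and F1 HS pigs from 8.60 to 9.03 with a median of 8.69. All 6 F1 HS pigs lay above the highest F1 TN pig, where limma called 38.7% of all probes within F1 pigs. LW TN pigs ranged from 8.31 to 8.83 with a median of 8.45 and LW HS pigs from 8.53 to 8.97 with a median of 8.78, where each of the 6 exceeded the average LW TN level. CR TN pigs were at 7.83, 8.27, 8.37, 8.48 and 8.57 and CR HS pigs ranged from 8.15 to 8.88 with a median of 8.51, so the CR groups overlapped. In all, 16 of 18 HS pigs lay above the TN mean of their breed. The difference was 0.47 in F1 pigs (SE 0.13, adjusted p = 0.00506), 0.24 in LW pigs (interval -0.019 to 0.50) and 0.20 in CR pigs (interval -0.075 to 0.47). Within slides 1 to 4, those with both climates in the same breed, it was 0.047, 0.18, 0.71 and 0.37, all above 0, but 0.047 on slide 1 was far below the pooled value. Without F1 pigs it was 0.22 over the other breeds (limma, adjusted p = 0.264). With the mean of the erythroid marker genes as a covariate it was 0.27 over all breeds (adjusted p = 0.0857). Neither value passed the threshold, and these fits called 0 and 6 of all 39072 probes.

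**Figure D2:**
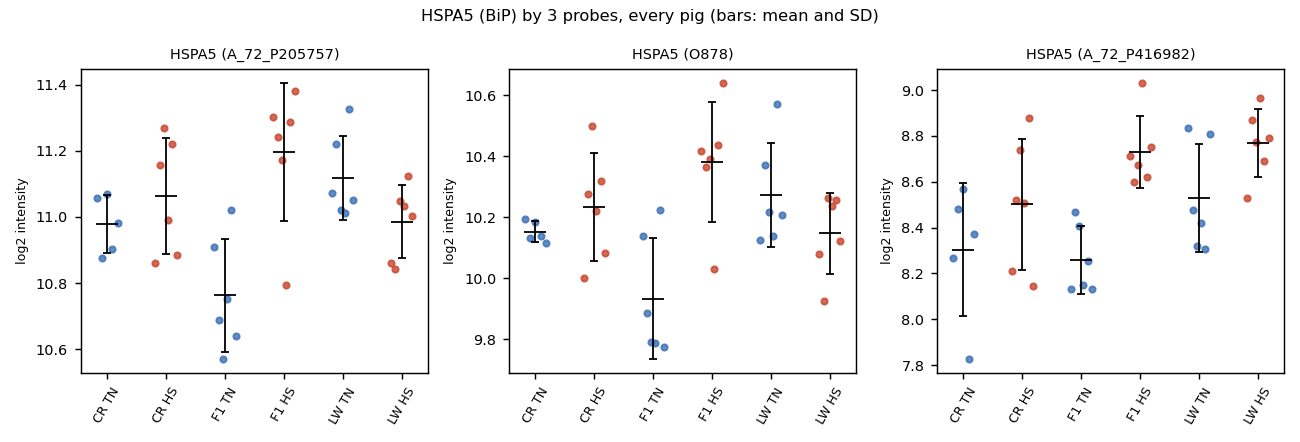
HSPA5 on 3 probes (panels), as log2 intensity of every pig by breed and climate, with TN pigs in blue, HS pigs in red and black bars for mean and SD. Of the 6 F1 HS pigs, at least 5 sit above the highest F1 TN pig on each probe, whereas the LW HS mean is above the LW TN mean on A_72_P416982 alone.

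From pig to pig, 2 of the HSPA5 probes varied together and A_72_P416982 did so with neither. After the group means were removed, A_72_P205757 and O878 had a Pearson correlation of 0.92 over 35 pigs, while A_72_P416982 had 0.06 with the former and -0.0058 with the latter. Pig 4 of F1 HS was the lowest of its group on the overlapping probes (10.80 and 10.03) and the highest on A_72_P416982 (9.03). A_72_P205757 also followed the brightness of the array within groups (r = 0.62, Spearman's rho = 0.65, permutation p = 8e-05 and 2e-05, adjusted 0.00128 and 0.00064 over 32 relations, r = 0.65 without the 2 arrays farthest from the median), and so did O878 (r = 0.53, rho = 0.58, permutation p = 0.00108 and 0.00045, adjusted 0.00691 and 0.0048, r = 0.61 without the 2 arrays). With brightness as a covariate, chosen after seeing the data, the F1 differences were 0.22 on A_72_P205757, 0.57 on A_72_P416982 and 0.25 on O878, with adjusted p of 0.156 to 0.305, and limma called 0 of all 39072 probes within F1 pigs. With the erythroid mean as a covariate they were 0.36, 0.44 and 0.37, with adjusted p of 0.0549 to 0.075. Limma then called 1957 of all 39072 probes within F1 pigs, against 15108 without that covariate. The erythroid mean, which is that covariate, was 10.65 ± 0.52 in F1 TN and 9.78 ± 0.55 in F1 HS pigs (SD, n = 6 each), 10.24 ± 0.46 and 9.92 ± 0.55 in CR pigs, and 10.34 ± 0.25 and 10.15 ± 0.26 in LW pigs. Within F1 pigs 8 of 21 erythroid probes were lower and 0 higher in HS, and 6 of 21 T cell and 4 of 8 B cell probes were higher and 0 lower. The summed erythroid level was 18.15 to 19.04 in F1 TN and 17.91 to 18.84 in F1 HS pigs on the log2 scale. It was 18.26 to 18.57 in CR TN, 18.17 to 18.87 in CR HS, 18.35 to 19.09 in LW TN and 18.46 to 18.98 in LW HS pigs.

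HSPA8 is the constitutive cytosolic HSP70, which folds new proteins and uncoats clathrin vesicles. On its main probe, A_72_P061586, CR pigs had a mean log2 level of 12.21 ± 0.29 (SD, n = 5) in TN and 12.17 ± 0.34 (n = 6) in HS. F1 pigs were at 12.03 ± 0.40 and 12.26 ± 0.47, and LW pigs at 12.21 ± 0.27 and 11.99 ± 0.46 (n = 6 each). The difference over breeds was -0.01 (SE 0.13, interval -0.27 to 0.24, adjusted p = 0.953), so changes beyond these bounds lie outside the interval. O9117 gave 0.079 (interval -0.19 to 0.34). Both differences were above 0 in F1 pigs (0.23 and 0.35) and below 0 in LW pigs (-0.23 and -0.18), with intervals that all spanned 0. A_72_P061586 shares 53 bases with a probe of LOC100524210 and may read both transcripts.

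HSP70.2 and HSPA1L lie among the genes of the major histocompatibility complex, and the pig gene HSP70.2 is the classical heat-inducible HSP70. The RefSeq annotation places it within the span of HSPA1L. On HSP70.2 A_72_P088236, CR pigs were at 6.97 ± 0.39 in TN (SD, n = 5) and 7.20 ± 0.67 in HS (n = 6). F1 pigs were at 6.93 ± 0.18 and 7.13 ± 0.23, and LW pigs at 6.82 ± 0.18 and 6.82 ± 0.30 (n = 6 each). CR HS pigs spread most, from 6.49 to 8.12 with a median of 7.20. Above all TN pigs of their breed lay 3 of 6 HS pigs in CR, 3 of 6 in F1 and 2 of 6 in LW. Over breeds the difference was 0.14 (interval -0.10 to 0.38, adjusted p = 0.355). The second HSP70.2 probe, A_72_P015686, has no row in the authors' table and was well above background on 8 of 35 arrays. On values recomputed here from the scanner files it differed by 0.094 (interval -0.0044 to 0.19, adjusted p = 0.128).

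HSPA1L, known as a testis form of HSP70, was at 6.35 ± 0.73 (TN) and 6.02 ± 0.57 (HS) in CR pigs, at 5.95 ± 0.32 and 5.80 ± 0.34 in F1 pigs and at 5.84 ± 0.37 and 5.80 ± 0.35 in LW pigs. HS minus TN over breeds was -0.17 (interval -0.47 to 0.12, adjusted p = 0.36). Within groups its level ran against array brightness (r = -0.67, rho = -0.63, permutation p = 1e-05, the smallest that 100000 permutations give, and 0.00011; adjusted 0.00032 and 0.00176). Without the 2 arrays farthest from the median r was -0.58. It also followed the erythroid mean (r = 0.53, rho = 0.55, permutation p = 0.00101 and 0.00089, adjusted 0.00691 and 0.00666, r = 0.48 without the 2 farthest arrays). HSPA6, an inducible form absent from rodents, has a probe named HSP70 in the files, A_72_P176131, which stands outside the name rule. It differed by 0.075 (SE 0.10, adjusted p = 0.577).

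HSPA2 is a testis-enriched HSP70. Its main probe, A_72_P043421, was at 6.48 ± 0.26 (TN) and 6.52 ± 0.49 (HS) in CR pigs, at 6.45 ± 0.45 and 6.56 ± 0.46 in F1 pigs and at 6.25 ± 0.24 and 6.26 ± 0.25 in LW pigs. It differed by 0.054 over breeds (interval -0.19 to 0.30). Within groups it followed the erythroid mean (r = 0.55, rho = 0.53, permutation p = 0.00069 and 0.00104, adjusted 0.00691 and 0.00666, and r = 0.55 without the 2 farthest arrays). The dimmer probe O8053, well above background on 20 of 35 arrays, came closest of the rest to the threshold at 0.18 (SE 0.0762, adjusted p = 0.0637). It passed in 5 alternatives of scaling, filter and weights, with adjusted p of 0.0171 to 0.0495. The quantile normalization done here and the recomputed values with and without a filter share the same values and estimate (0.20). In the other alternatives tested it did not pass, with an adjusted p of up to 0.394. In CR pigs, O8053 was at 4.83, 5.04, 5.25, 5.36 and 5.50 in TN and ranged from 5.24 to 6.02 with a median of 5.50 in HS, and each of the 6 HS pigs exceeded the TN average (difference 0.38, adjusted p = 0.557). In F1 pigs 2 of 6 did so (difference 0.068, interval -0.19 to 0.33) and in LW pigs 4 of 6 (difference 0.11, interval -0.15 to 0.37). The 2 probes ran against each other from pig to pig (r = -0.35 after group means were removed), so they did not read HSPA2 alike.

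HSPA13, a microsome-associated HSP70 without the peptide-binding domain, was at 7.17 ± 0.22 (TN) and 7.10 ± 0.21 (HS) in CR pigs, at 6.87 ± 0.55 and 7.03 ± 0.35 in F1 pigs and at 7.13 ± 0.42 and 6.89 ± 0.30 in LW pigs. Over breeds it differed by -0.053 (interval -0.30 to 0.19). A probe outside the name rule that is tied to HSPA13, A_72_P004046, well above background on 16 of 35 arrays, was 0.13 higher in HS (adjusted p = 0.0464), with a correlation of 0.07 to the main probe over pigs. HSPA9 (mortalin) pulls proteins into the mitochondrion. Its sole probe was the least variable main probe between groups, whose means ran from 6.40 in F1 HS to 6.48 in F1 TN pigs. CR pigs were at 6.44 ± 0.15 and 6.41 ± 0.09, and LW pigs at 6.43 ± 0.13 and 6.44 ± 0.17. The difference over breeds was -0.032 (interval -0.15 to 0.08).

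HSPA14 works at the ribosome with a J protein on emerging chains. On O13519 it was at 6.74 ± 0.28 (TN) and 6.77 ± 0.28 (HS) in CR pigs, at 6.57 ± 0.35 and 6.68 ± 0.29 in F1 pigs and at 6.83 ± 0.43 and 6.84 ± 0.32 in LW pigs. HS and TN pigs differed by 0.049 (interval -0.17 to 0.27), and by -0.018 on its second probe (interval -0.22 to 0.19). The 2 probes had a correlation of 0.90 over pigs, the closest of any non-overlapping pair of probes of 1 member in the set.

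The HSP110 proteins recharge HSP70 with ATP and help to pull apart aggregates. HSPH1 on its main probe, A_72_P035611, was at 7.62 ± 0.47 (TN) and 7.58 ± 0.32 (HS) in CR pigs, at 7.50 ± 0.58 and 7.60 ± 0.39 in F1 pigs and at 7.79 ± 0.57 and 7.40 ± 0.44 in LW pigs. The difference over breeds was -0.11 (interval -0.42 to 0.20). Its probes parted in LW pigs, where A_72_P035611 differed by -0.39 (interval -0.91 to 0.14) and A_72_P050661 by 0.37 (interval 0.085 to 0.65, adjusted p = 0.563). On A_72_P050661, LW TN pigs ranged from 6.77 to 7.35 with a median of 7.26 and LW HS pigs from 7.21 to 7.87 with a median of 7.51, and each of the 6 HS pigs exceeded the TN average. In CR pigs the same probe differed by -0.086 (interval -0.38 to 0.21) with 2 of 6 HS pigs above the TN average, and in F1 pigs by 0.11 (interval -0.17 to 0.39) with 5 of 6. The correlation of these 2 probes over pigs was 0.10, and that of A_72_P035611 with the third HSPH1 probe, A_72_P591989, was 0.73. The remaining probe, O9993, was not well above background on any array.

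HSPA4, the second HSP110 protein, has a probe with no row in the authors' table although it was well above background on all 35 arrays. On values recomputed from the scanner files, LW TN pigs ranged from 6.53 to 6.97 with a median of 6.75 and LW HS pigs from 6.33 to 6.82 with a median of 6.45. CR TN pigs were at 6.75, 6.79, 6.91, 7.001 and 7.18 and CR HS pigs ranged from 6.68 to 7.03 with a median of 6.83. F1 TN pigs ranged from 6.67 to 7.13 with a median of 6.83 and F1 HS pigs from 6.44 to 6.996 with a median of 6.78. In LW pigs 5 of 6 HS values lay below the lowest TN value. In limma over 41466 probes the difference over breeds was -0.15 (SE 0.060, interval -0.27 to -0.027, adjusted p = 0.0536), and CR minus LW was 0.28 (SE 0.074, adjusted p = 0.0565), both just short of the threshold.

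**Figure D3:**
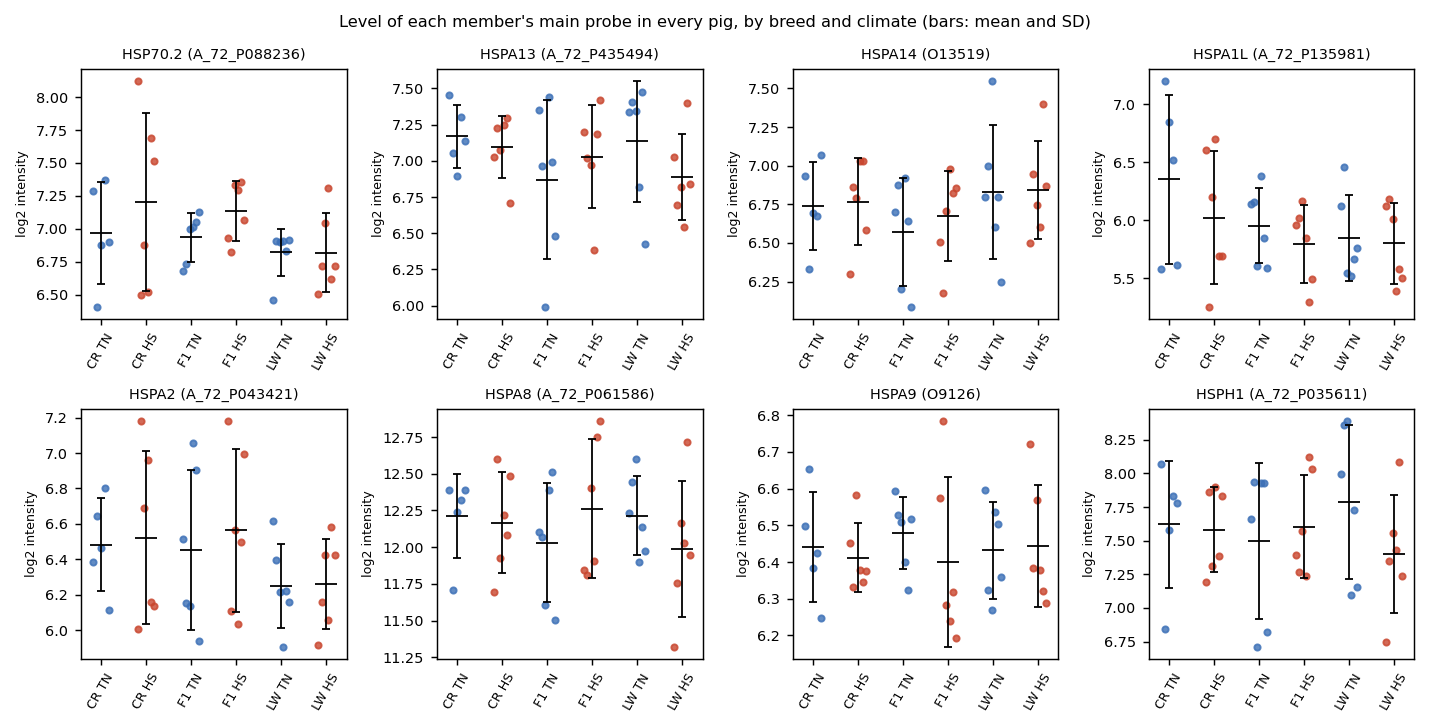
Log2 intensity of the main probe of 8 members in every pig, by breed and climate, with TN pigs in blue, HS pigs in red and black bars for mean and SD. HS and TN pigs of each breed overlap in all 8 panels, and HSP70.2 spreads most in CR HS pigs, from 6.49 to 8.12.

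Breeds were compared with climate in the model. Limma called 0 of the 16 probes for CR minus LW, F1 minus CR, F1 minus LW and F1 minus the mean of both parents, against 1.08%, 0.184%, 0.0256% and 0.0717% of all probes. At an unadjusted p under 0.05 there was 1 of 16 for CR minus LW and 0 for the others, against 10.1%, 4.95%, 4.48% and 2.99% of all probes. That probe was HSPA5 A_72_P416982, -0.25 in CR against LW pigs (SE 0.0935, interval -0.44 to -0.061, adjusted p = 0.256). The largest difference of that contrast was HSPA1L at 0.36 (interval -0.0092 to 0.72, adjusted p = 0.515). HSP70.2 A_72_P088236 was at 0.27 (interval -0.025 to 0.57).

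Members were then set against each other across pigs. Over the 35 pigs, with group means removed, 17 of the 36 pairs of main probes had an adjusted permutation p under 0.05 for Pearson's r, 13 of them positive. How many pairs of probes outside the set would pass was not counted, so the 17 do not set members apart. One of the 17, HSPA5 with HSPH1 (r = 0.43), was exceeded by 17.7% of all probes in their r with HSPH1. The closest pair was HSPA8 A_72_P061586 and HSPH1 A_72_P035611, with r = 0.90 and rho = 0.90 (permutation p = 1e-05 for both, adjusted 0.00018 and 0.00036). It was 0.89 without the 2 pigs farthest from the median, 0.93 among TN pigs, 0.95 among HS pigs, 0.92 with slide removed as well and 0.87 with array brightness and the erythroid mean removed. Of the other 39071 probes of the table, 4 had a higher r with HSPA8 than HSPH1 had, and 53 (0.136%) a higher r with HSPH1 than HSPA8 had. Among the 4 was a probe of the same sequence as A_72_P061586 (r = 0.98). Other HSPH1 probes were not paired with HSPA8. A_72_P035611 had r = 0.10 with HSPH1 A_72_P050661 and 0.73 with HSPH1 A_72_P591989. HSPA14 had r = 0.77 for HSPH1 (rho = 0.72, adjusted permutation p = 0.00018 and 0.00054) and 0.69 for HSPA8 (rho = 0.65, adjusted 0.00024 and 0.00156). Those values were exceeded by 3.97% and 4.45% of all probes, so many probes outside the set followed HSPH1 and HSPA8 at least as closely. HSPA13 with HSPA8 (r = 0.52) was exceeded by 13.3% and HSPA2 with HSPA8 (r = 0.51) by 13.8%.

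The partners of the endoplasmic reticulum, HSPA13 and HSPA5, had r = 0.60 (rho = 0.59, adjusted permutation p = 0.00303 and 0.00278), which was 0.47 without the 2 farthest pigs, and 2.85% of all probes had a higher r with HSPA5. HSPA9 ran against HSPA8 (r = -0.63, rho = -0.62, adjusted permutation p = 0.00295 and 0.00202), on the probe whose stop-free frames lie on the opposite strand. HSPA5 with HSPA8 had r = 0.48 (rho = 0.46, adjusted permutation p = 0.0225 and 0.0293), and 0.28 once brightness and the erythroid mean were removed, and 10.2% of all probes had a higher r with HSPA5 and 15.5% with HSPA8. HSP70.2 had r between -0.45 and 0.02 with every other member. All points share 1 RNA extract and array per pig.

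**Figure D4:**
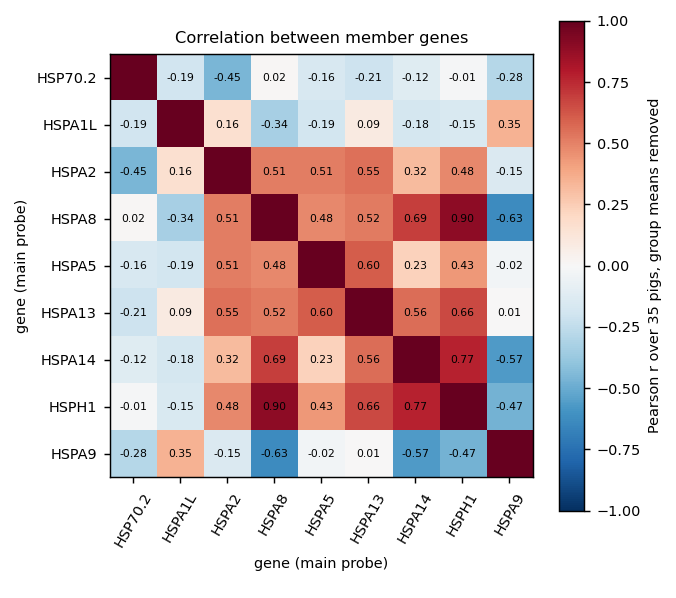
Pearson correlation between the main probes of 9 members (rows and columns) over 35 pigs after the 6 group means were removed, from blue (-1) to red (1). HSPA8, HSPH1, HSPA14 and HSPA13 form a block between 0.52 and 0.90, and HSPA9 is negative with HSPA8, HSPA14 and HSPH1.

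By the same measure, the genes outside the set closest to HSPA5 A_72_P205757, among 8409 named genes, were RPN2 (r = 0.87), a subunit of the oligosaccharyl transferase, SPCS1 (0.84), of the signal peptidase, and GORASP2 (0.83), a Golgi stacking protein. Closest to HSPA8 were HSPD1 (0.90), the mitochondrial HSP60, HNRNPM (0.90), which binds pre-mRNA, and CCT4 (0.89), a subunit of the cytosolic chaperonin. Closest to HSPH1 A_72_P035611 were RBM39 (0.94), TRA2A (0.93), both splicing factors, and EIF4A2 (0.92), an RNA helicase of translation initiation. These 9 were chosen as the highest of all, so the values describe a rank and carry no test.

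Genes that work with HSP70 were counted over breeds in the same fit. For HSP40 proteins with a J domain, 13 of 43 probes were higher and 1 lower (30.2% and 2.33%, against 20.1% and 14.7% of all probes), with a median of 0.14. The smallest p-values were those of DNAJC3, a J protein of the endoplasmic reticulum (0.31, SE 0.061, adjusted p = 0.00159), DNAJC13, of endosomes (0.31), and DNAJB12, of the membrane of the endoplasmic reticulum (0.31), whereas a second DNAJB12 probe was lower (-0.24). Of nucleotide exchange and release factors, 5 of 16 probes were higher and 2 lower (31.2% and 12.5%, median 0.077). BAG3 was lower on 1 of 6 probes (-0.45, adjusted p = 0.00246). On the sole probe tested of each, BAG4 was lower (-0.69) and HSPBP1 was higher (0.30). All 3 bind HSP70 and govern its release of nucleotide.

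For HSP90 and proteins that work with it, 13 of 31 probes were higher and 1 lower (41.9% and 3.23%, median 0.24). STIP1 and ST13, listed as organisers between HSP70 and HSP90, had no probe by name among those tested. Of the 11 genes of the list, 9 were counted. TRAP1, the mitochondrial HSP90, was higher on 1 of 2 probes (0.54, SE 0.097, adjusted p = 0.00159), while the other was at -0.25 (adjusted p = 0.0554). CDC37, which loads kinases on HSP90, was higher (0.23 for the smaller p). The stress-inducible HSP90AA1 was higher on 3 of 8 probes (0.43 for the smallest p), and HSP90B1, the HSP90 of the endoplasmic reticulum, on 6 of 9, so it gave 6 of the 13. A further list held partners of HSPA5 in the endoplasmic reticulum and genes of the stress response there. Of its probes, 21 of 57 were higher and 7 lower (36.8% and 12.3%, median 0.23). Its transcription factors ATF4, ATF6, DDIT3 and XBP1 had 7, 2, 2 and 9 probes, with 0 higher and 1, 0, 2 and 1 lower. The lower XBP1 probe was at -0.21. All other XBP1 probes were above 0 without passing over breeds (0.17 to 0.25, limma, adjusted p = 0.0633 to 0.246). Within F1 pigs they were at 0.43 to 0.55 (adjusted p = 0.00263 to 0.0721). The lists share probes: the same 6 higher HSP90B1 probes are among these 21, and the probe of HYOU1, which was higher, also stands among the exchange factors. PDIA3, a disulfide isomerase, was higher on 1 of 2 probes (0.36) and ERN1, a sensor of unfolded proteins, lower on its sole probe (-0.94, adjusted p = 0.00221). HERPUD1, of protein degradation in that compartment, was higher on one probe (0.32) and lower on another (-0.33). Of heat shock factors and their other targets, 3 of 32 probes were higher and 4 lower (9.38% and 12.5%, median 0.093). HSPD1 held 21 of these probes and HSPE1 6, so these 2 genes weigh most in the shares. HSF1 was the sole heat shock factor tested, and HSF2, HSF4 and HSPB1 had no probe by name. The small heat shock protein CRYAB was lower (-0.91, adjusted p = 0.00159), as was HSF1 (-0.34), each on the sole probe tested. HSPD1 was higher on 3 of 21 probes (14.3%, against 20.1% of all probes). Without F1 pigs none of these calls was left, and with the erythroid mean as a covariate limma called 6 of all 39072 probes over breeds. No list was tested as a set.

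**Figure D5:**
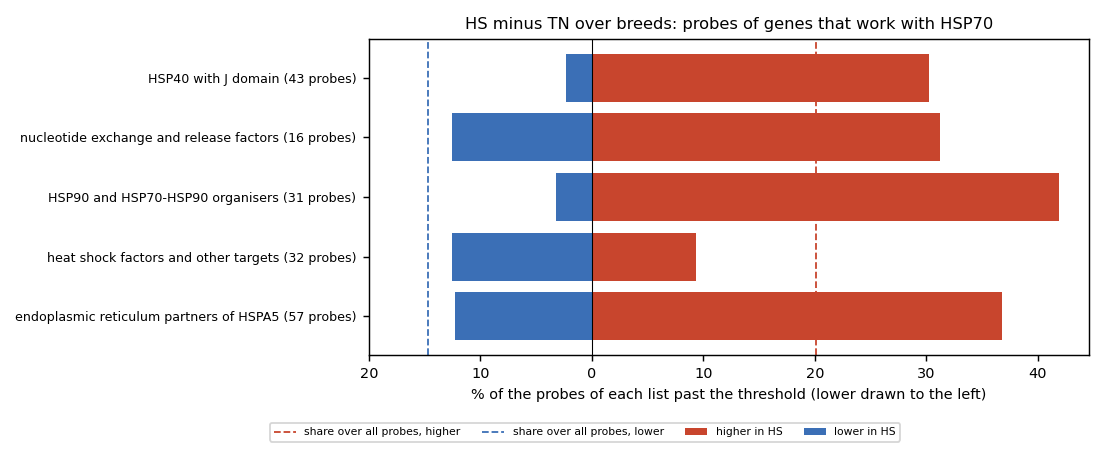
Share of the probes of 5 lists of genes that work with HSP70 (rows) that were higher in HS (red, to the right) or lower (blue, to the left) at an adjusted p under 0.05, in percent, with dashed lines for the share over all 39072 probes. Higher probes make up 41.9% of the HSP90 list, which holds no probe of STIP1 or ST13. Such probes make up 9.38% of heat shock factors and their other targets, where 21 of 32 probes are of HSPD1. The 6 higher HSP90B1 probes count in both the HSP90 and the endoplasmic reticulum list.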

How the data were processed

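Whole-blood RNA of 35 pigs was measured on one-colour Agilent arrays, read with Feature Extraction 10.10.1.1 per the file headers. The authors deposited a table of log2 intensities, which they made by quantile normalization and a filter on expressed probes (39072 probes), and scanner files with unnormalized intensity. The log2 table was used as deposited. The median intensity in the deposited scanner files was also quantile normalized here, as an alternative and for the 3 probes without a row in that table. On the shared probes both had a correlation of 0.999971 and a median absolute difference of 0.023.

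Each probe was fitted with limma 3.58.1 in R 4.3.3 (lmFit, eBayes). Breed plus climate gave HS minus TN and the breed contrasts, while the 6 group means gave effects within a breed and the interaction. P-values were two-sided and adjusted by Benjamini-Hochberg over all 39072 probes, with a threshold of 0.05. The script was tested on simulated data. The study's random effects of pen, day of slaughter and parents have no labels here and were not fitted. The study's own model, which held them, called fewer probes in blood. Correlations used 100000 permutations.

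Levels by group are given for the probe of each member with the highest mean and for any other probe past the threshold in HS minus TN or a breed contrast. Levels of HSPA5 O878, HSPA2 O8053 and HSPH1 A_72_P050661 were added after their values were seen. Members, gene lists and marker lists were chosen with earlier results of these data known. Groups came from the sample titles. For arrays, the number of pigs limits the precision. Alternatives covered the normalization, the background correction, the filter, slide, array weights, an erythroid covariate and leaving out a breed or an array.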

Additional observations from a re-analysis of the deposited data

Results flagged for a closer look

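Of the 96 combinations of a probe and a group, 6 had 1 pig far from the others, where chance gives about 5%. On HSPA8, the second pig of CR TN was low on both probes, at 11.71 on A_72_P061586 (others 12.24 to 12.39) and 9.645 on O9117 (others 10.26 to 10.41). The first pig of LW HS was at 9.115 on HSPA8 O9117 (others 9.972 to 10.44). On HSPA5, the fourth pig of F1 HS was at 10.8 on A_72_P205757 (others 11.17 to 11.38), the lowest, and at 9.03 on A_72_P416982 (others 8.597 to 8.751), the highest. The first pig of LW TN was at 6.462 on HSP70.2 A_72_P088236 (others 6.832 to 6.914).

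On HSPA5 O878 every F1 HS pig lay above the F1 TN mean and every LW HS pig below the LW TN mean. The climate effect of F1 minus LW pigs was 0.57 (limma, adjusted p = 0.12214).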

How the results depend on the processing

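Counts of the 16 probes called in HS minus TN over breeds were 1 in the authors' table (13601 of all 39072 probes) and 3, the HSPA5 probes, without LW pigs (11281). They were 2 with the median intensity quantile normalized here (13786), scaling on the 75th percentile (14023) and array weights (18343). With recomputed values, on 18 and 19 member probes, they were 2 with a filter (13855 of 41466) and without (12795 of 60305). The second was HSPA2 O8053 in each. Without F1 pigs 0 were called (0 of all 39072), and with the erythroid mean as a covariate 0 (6 of all 39072). Within F1 pigs the count was 3 (15108 of all 39072 probes). It was 0 with the erythroid mean (1957) or, an alternative added after seeing the data, array brightness as a covariate (0). Leaving out 1 pig gave 1 to 2 over breeds (2, with HSPA2 O8053, without CR TN pig 1, F1 TN pig 3, LW TN pig 3 or 5, or LW HS pig 6) and 3 within F1 pigs. The other counts were 0 under all alternatives. The cause was not tested.

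Outside single slides, the differences that changed sign had no call. Over breeds these were HSPA8 A_72_P061586 at 0.034 (75th percentile), 0.0028 (without CR) and 0.10 (without LW), HSPA1L at 0.053 and HSPA14 A_72_P410273 at 0.029 (erythroid mean), and HSPA8 O9117 at -0.051 (brightness). Without F1 pigs HSPH1 A_72_P591989 was at -0.0038, HSPA5 A_72_P205757 and O878 at -0.028 each and HSPA8 O9117 at -0.061. Without LW pigs HSPA13 was at 0.049, HSPA14 A_72_P410273 at 0.0032 and HSPH1 A_72_P035611 at 0.037. For CR minus LW, HSPA5 A_72_P205757 was at 0.0063 and O878 at 0.011 with array weights, and HSPA9 at 0.00093 and HSPH1 A_72_P035611 at -0.049 with brightness. Leaving out 1 pig, HSPA8 A_72_P061586 ran from -0.058 to 0.039 and HSPA14 A_72_P410273 from -0.063 to 0.027 over breeds, and for CR minus LW HSPA9 ran from -0.034 to 0.018, HSPA5 O878 from -0.053 to 0.020 and HSPH1 A_72_P035611 from -0.067 to 0.098.

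Within slides 1 to 4, 20 of 64 values over breeds had the opposite sign, in 13 of the 16 probes (for example HSPA2 A_72_P043421 from -0.33 to 0.33, HSPA14 O13519 from -0.33 to 0.23 and HSPA2 O8053 from -0.12 to 0.40), and none in the 3 HSPA5 probes.

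The climate effect of F1 minus LW pigs on HSPA5 A_72_P205757 and O878 passed with array weights alone (0.59 and 0.60, limma, adjusted p = 0.0364), and was 0.35 and 0.37 with brightness as a covariate (adjusted p = 0.99996), from 0.57 on both. The number of pigs limits the precision, and probes dim on many arrays have levels close to background. No paired analysis was possible because the labels carry no replicate numbers that groups share.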
